A study of Mus musculus with 24 samples.

Results

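Amino acid and peptide transporter genes of the mouse are described here across intestinal organoids that lack the kinases CDK8 and CDK19 or were given an inhibitor of both. Members were all genes whose symbol belongs to the solute carrier families Slc1a, Slc3a, Slc6a, Slc7a, Slc15a, Slc36a, Slc38a and Slc43a, without pseudogenes, and this gave 68 of the 54146 genes in the count tables. Of these 68 genes, 42 had a mean of at least 10 reads per library in at least 1 of the 2 experiments and are reported, 40 in each experiment and 38 in both.

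The study asked what CDK8 and CDK19, kinases of the Mediator complex that regulates RNA polymerase II, do in intestinal epithelium. RNA of cultured organoids, which are self-renewing epithelial structures grown from small intestinal crypts, was sequenced in 24 libraries, 3 per group. In the genotype experiment, mRNA was captured by its poly(A) tail from 4 groups of organoids, wild type (WT), CDK8-/-, CDK19-/- and the double knockout of both genes. In the inhibitor experiment, WT organoids received the vehicle DMSO or Senexin B, which inhibits both kinases (10 µM in the study's figure legends), and were taken after 16 h or after 24 h, and ribosomal RNA was depleted from total RNA.

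By the study's methods the organoids came from mice whose Cdk8 alleles carry lox sites, with or without a Cre recombinase that is fused to the oestrogen receptor and driven by the Villin promoter, which is active in epithelial cells. Exposure to 600 nM 4-hydroxytamoxifen for 7 days activates this Cre, which removes exon 2 of Cdk8, and the labels repeat this protocol text for all libraries, so whether the organoids of the inhibitor experiment were exposed is not known. Cdk19 was cut in exon 1 by Cas9 and a guide RNA delivered with a lentivirus, followed by puromycin and by expansion of picked single organoids, so a Cdk19 knockout line is a clone. The labels call the 3 libraries of each group biological triplicates and do not say whether they come from separate mice or clones. The genotype libraries held 41879958 to 42068649 reads each, of which 14636861 to 15473180 were counted on genes, and the inhibitor libraries held 36042777 to 36255610 reads, of which 27075937 to 28405118 were counted on genes. These counts are for 1 strand setting. The genotype libraries are unstranded, and counts without regard to strand put 27761454 to 29299919 of their reads on genes.

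Dietary protein reaches the small intestine as short peptides and free amino acids, which absorptive cells take up across the brush border with the help of sodium or proton gradients and release to the blood through exchangers and exporters of the basolateral membrane. Several of these carriers work as pairs, in which a heavy chain such as SLC3A1 or SLC3A2 brings a light chain of the SLC7 family to the membrane. Dividing cells rely on further carriers, among them SLC7A5, SLC1A5 and the cationic carriers SLC7A1 and SLC7A2, and many of their genes are known targets of ATF4, the transcription factor that responds to amino acid shortage.

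The targets were read first, in CPM, which are counts over the scaled library size in megareads. Cdk8 stood at 42.5, 43.2 and 35.8 CPM in WT libraries 1, 2 and 3, 45.8, 57.3 and 42.4 in the Cdk8 knockout, 46.5, 46.5 and 48.5 in the Cdk19 knockout and 47.3, 44.1 and 43.1 in the double knockout. No knockout library was below the WT range, and since only exon 2 is removed this count neither shows nor denies the deletion. Cdk19 stood at 47.6, 50.1 and 48.5 CPM in WT libraries 1, 2 and 3, 46.98, 43.2 and 38.9 in the Cdk8 knockout, 48.8, 28.1 and 28.3 in the Cdk19 knockout and 26.96, 23.8 and 51.7 in the double knockout. Library 1 labelled Cdk19 knockout and library 3 labelled double knockout sat at the WT level of Cdk19 RNA, while the other 4 libraries with those labels sat below every WT library. Counts of called members between genotypes are therefore given with and without these 2 libraries, and counts by role and in other gene lists only with them. These 2 are called doubted below for their RNA level alone, which does not show whether CDK19 protein was present. By the study's methods, Western blots of the knockout organoids lacked CDK19 protein and qPCR showed loss of Cdk19 mRNA. In the inhibitor experiment Cdk8 stood at 57.6, 68.8 and 75.99 CPM with DMSO and 65.9, 73.6 and 71.5 with Senexin B at 16 h, and 61.97, 66.02 and 69.4 with DMSO and 59.8, 58.6 and 66.3 with Senexin B at 24 h. Cdk19 there stood at 41.5, 44.05 and 40.7 CPM with DMSO and 45.4, 42.99 and 45.2 with Senexin B at 16 h, and 56.5, 49.2 and 53.6 with DMSO and 50.7, 40.8 and 42.4 with Senexin B at 24 h.

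The labels of the genotype libraries also name 4T1, a mouse mammary carcinoma line, as the cell type beside the tissue intestinal organoids. In these 12 libraries the intestinal markers Vil1, Epcam and Cdx2 ranged over 752 to 1356, 1327 to 1651 and 206 to 303 CPM. Of 8 mammary markers the highest value in any genotype library was 1.48 CPM, for Csn3, and the milk genes Csn2 and Lalba had 0 counts throughout. The epithelium was thus intestinal by its markers in every library. Markers of fibroblasts, immune cells and endothelium summed to at most 5.91, 5.802 and 5.404 CPM in any library of either experiment.

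Among the members in WT organoids, levels per kilobase of exon put Slc6a20a first at 67.4 ± 3.74 CPM per kb (SD, n = 3) and Slc3a1 next at 66.9 ± 2.94, a pair whose libraries overlapped. Slc1a5 at 52.7 ± 2.03 CPM per kb was below both and above Slc7a7 at 41.0 ± 3.77, which overlapped with Slc3a2 at 38.9 ± 1.57. In DMSO at 16 h the order began with Slc1a5 at 63.5 ± 4.78 CPM per kb and Slc1a4 at 61.8 ± 10.4, whose libraries overlapped, and went on with Slc3a1 at 45.02 ± 3.37. The experiments differ in RNA selection, so their levels are not compared by a test. Of the 26 members below the reporting limit, 16 had at most 3 counts in every library, and Slc1a6, Slc36a2, Slc36a3 and Slc7a12 had 0 counts in all 24. Slc6a14, a brush border carrier of wide range, was highest among the 26 with 13 counts in its top library.

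The double knockout had higher RNA of several intestinal absorption carriers and lower RNA of several carriers that feed growing cells. Against WT, 19 of 40 members (47.5%) were called in the double knockout at an edgeR adjusted p under 0.05, beside 17.3% of all 15602 genes tested. Calls refer throughout to the standard edgeR fit, which has all 12 libraries of an experiment, the count filter and no block, unless another fit is named. Of the 19 members, 11 rose, beside 9.41% of all genes, and 8 fell, beside 7.9%. The falls include Slc15a2, which passed the count filter through WT and Cdk8 knockout libraries alone. The share of members called was thus above the share of all genes in both directions. The rises included 3 of 8 brush border carriers and 4 of 5 basolateral ones, with 0 falls in either list, and 5 of 9 growth carriers fell with 0 rises. Of 5 lysosomal carriers 1 rose, and Slc1a3, the 1 gene tested of the glutamate list, fell. Slc1a1, which also carries glutamate, is listed with the brush border. Of 6 carriers of neurotransmitters and osmolytes 2 rose and 1 fell, and of 6 other members 1 rose and 1 fell. The median log2 fold change was 0.07 over the members and -0.01 over all genes tested. In such bulk RNA, fewer cells of a type and less RNA per cell cannot be told apart. Without double knockout library 3 the count was 12, without both libraries at the WT level of Cdk19 it was 16 (without Slc15a2, Slc38a7, Slc7a11, Slc7a7 and Slc7a9, and with Slc3a1 and Slc6a9), and without WT library 1 or 2 it was 11 or 10. Of all genes these 4 fits called 2452, 3008, 1348 and 1454, beside 2700 with all libraries. Calls that held with any 1 of the 6 libraries left out were Slc15a1, Slc6a19, Slc7a8, Slc43a2, Slc3a2, Slc7a15, Slc7a2, Slc7a5 and Slc1a5, which is 9 of the 19.

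**Figure D1:**
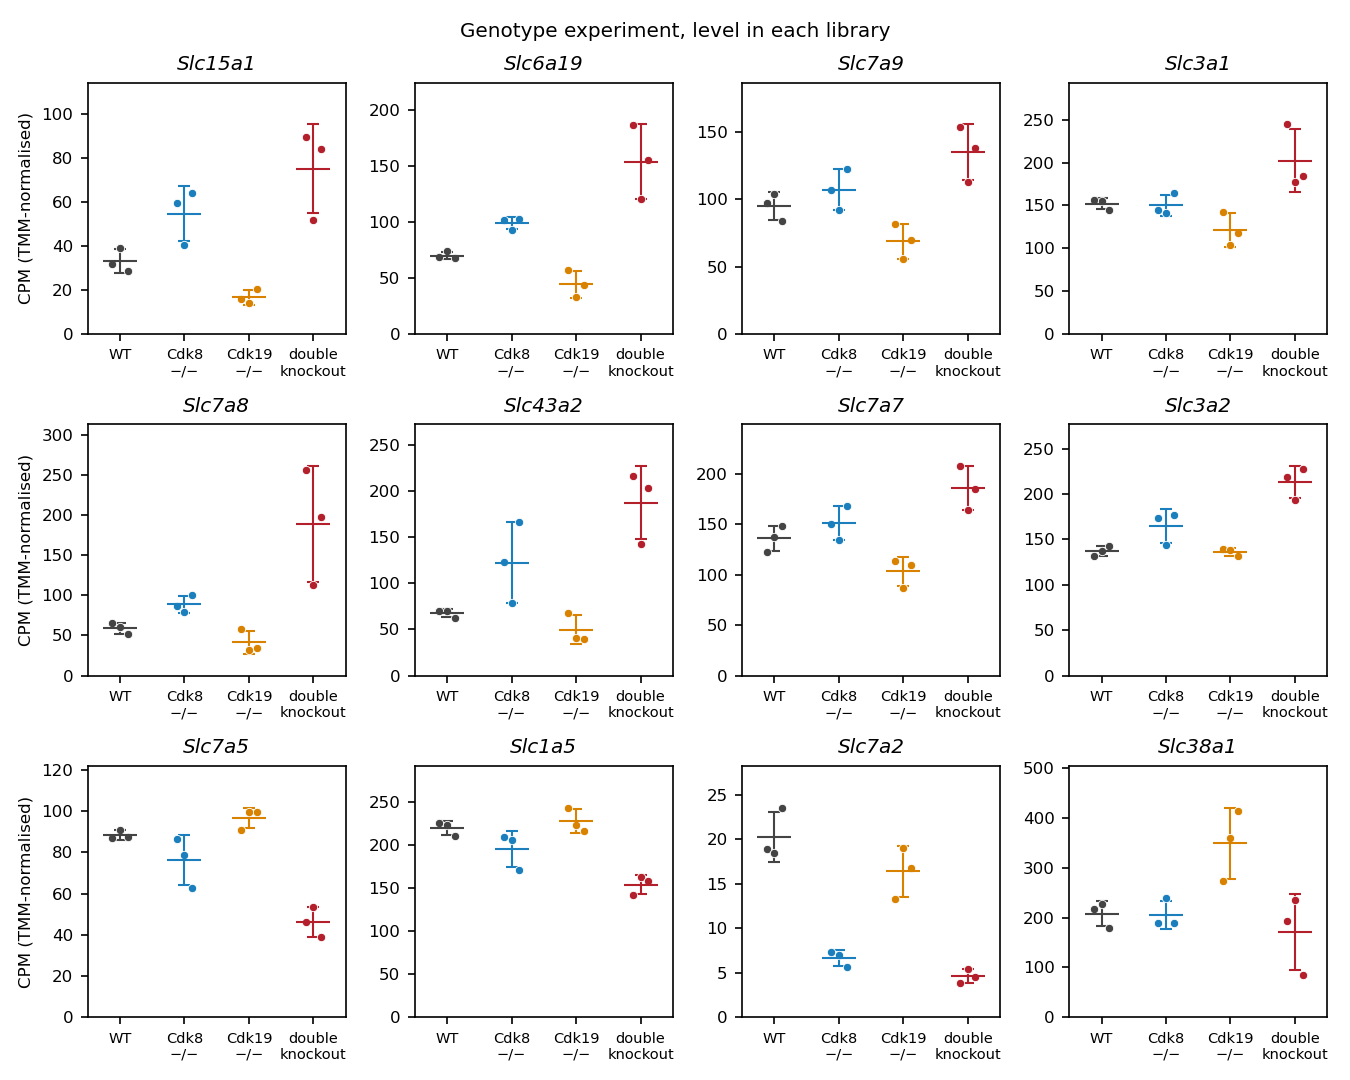
CPM of 12 transporters (linear axes from 0) in WT, Cdk8 knockout, Cdk19 knockout and double knockout organoids, with points for libraries and bars for the mean ± SD (n = 3). Slc6a19, Slc7a8 and Slc3a2 are higher in the 3 double knockout libraries than in all 9 others, and Slc7a5 and Slc1a5 are lower.

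At the brush border, Slc15a1 (ENSMUSG00000025557) encodes the proton-coupled importer of short peptides. It stood at 31.9, 39.1 and 28.4 CPM in WT libraries 1, 2 and 3, 59.3, 40.5 and 64.2 in the Cdk8 knockout, 15.7, 13.9 and 20.4 in the Cdk19 knockout and 89.3, 51.9 and 83.9 in the double knockout. Every library of the Cdk8 knockout and of the double knockout lay above WT, every Cdk19 knockout library lay below it, and double knockout library 2 lay within the range of the Cdk8 knockout. Slc15a1 rose in the double knockout with a log2 fold change of 1.18 ± 0.23 (SE, edgeR adjusted p = 0.00526) against WT. Slc6a19 (ENSMUSG00000021565), the sodium-dependent importer of neutral amino acids, stood at 68.2, 73.8 and 67.9 CPM in WT libraries 1, 2 and 3, 102, 92.5 and 102 in the Cdk8 knockout, 56.9, 33.1 and 43.3 in the Cdk19 knockout and 186, 120.1 and 155 in the double knockout. No group overlapped with another, in the order Cdk19 knockout, WT, Cdk8 knockout and double knockout from low to high. Slc6a19 rose in the double knockout with a log2 fold change of 1.14 ± 0.18 (SE, edgeR adjusted p = 0.00195) against WT.

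Cystine and cationic amino acids enter through the pair of the light chain Slc7a9 and the heavy chain Slc3a1. Slc7a9 (ENSMUSG00000030492) stood at 96.9, 104 and 84.2 CPM in WT libraries 1, 2 and 3, 107, 92.1 and 123 in the Cdk8 knockout, 81.6, 55.6 and 69.8 in the Cdk19 knockout and 154, 113 and 138 in the double knockout. All double knockout libraries were above WT, and library 2 fell inside the range of the Cdk8 knockout. Slc7a9 rose with a log2 fold change of 0.51 ± 0.16 (SE, edgeR adjusted p = 0.0437) against WT. Slc7a9 lost the call in 5 of 6 fits with 1 left out, at an edgeR adjusted p of 0.128 and 0.0864 without double knockout library 1 or 3, and 0.111, 0.0679 and 0.132 without WT library 1, 2 or 3. Its partner Slc3a1 (ENSMUSG00000024131) stood at 156, 156 and 144 CPM in WT libraries 1, 2 and 3, 145, 141 and 165 in the Cdk8 knockout, 142, 103 and 117 in the Cdk19 knockout and 245, 178 and 185 in the double knockout. The 3 double knockout libraries were above all 9 others, with library 1 the highest. Slc3a1 was not called by edgeR, at a log2 fold change of 0.41 ± 0.14 (SE, edgeR adjusted p = 0.0578) against WT, and was called by DESeq2 (DESeq2 adjusted p = 0.0305).

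Slc6a20a (ENSMUSG00000036814), which carries proline and other imino acids, stood at 258, 281 and 287 CPM in WT libraries 1, 2 and 3, 225, 162 and 182 in the Cdk8 knockout, 162, 98.1 and 122 in the Cdk19 knockout and 234, 181 and 256 in the double knockout. All WT libraries were above all libraries of the 3 knockout groups, and the Cdk19 knockout was lowest. Its paralogue Slc6a20b stood at 77.9, 78.8 and 73.3 CPM in WT libraries 1, 2 and 3, 78.3, 74.3 and 62.01 in the Cdk8 knockout, 51.9, 47.8 and 53.6 in the Cdk19 knockout and 77.1, 65.5 and 72.1 in the double knockout. The Cdk19 knockout libraries were below all others and the remaining groups overlapped. In the stranded inhibitor libraries only 6.18% of the stranded reads over Slc6a20b came from its own strand, so its counts in the unstranded genotype libraries cannot be told from RNA of the neighbouring gene Sacm1l. Slc1a1, a carrier of glutamate and aspartate, stood at 38.2, 35.5 and 34.1 CPM in WT libraries 1, 2 and 3, 32.3, 38.1 and 24.9 in the Cdk8 knockout, 39.9, 32.3 and 33.8 in the Cdk19 knockout and 34.9, 25.4 and 26.8 in the double knockout. All 4 groups overlapped for Slc1a1. Slc36a1, a proton-coupled carrier of glycine, alanine and proline, stood at 34.1, 35.05 and 29.5 CPM in WT libraries 1, 2 and 3, 35.9, 33.99 and 42.5 in the Cdk8 knockout, 40.2, 38.2 and 36.5 in the Cdk19 knockout and 43.1, 35.9 and 38.1 in the double knockout. Its knockout groups overlapped with each other, and only the Cdk8 knockout overlapped with WT.

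On the basolateral side, Slc7a8 (ENSMUSG00000022180), an exchanger of neutral amino acids, stood at 65.02, 60.6 and 51.3 CPM in WT libraries 1, 2 and 3, 86.6, 79.2 and 99.9 in the Cdk8 knockout, 57.8, 31.9 and 33.95 in the Cdk19 knockout and 256, 113 and 198 in the double knockout. The double knockout libraries were above all others, library 1 highest and library 2 lowest, and the Cdk8 knockout lay between them and WT without overlap. Slc7a8 rose with a log2 fold change of 1.68 ± 0.28 (SE, edgeR adjusted p = 0.0023) against WT, the largest rise among the members. Slc43a2 (ENSMUSG00000038178), a uniporter that lets branched-chain amino acids, phenylalanine and methionine out of the cell, stood at 70.3, 70.2 and 62.6 CPM in WT libraries 1, 2 and 3, 123, 78.3 and 167 in the Cdk8 knockout, 67.8, 40.7 and 40.2 in the Cdk19 knockout and 217, 142 and 203 in the double knockout. The double knockout and the Cdk8 knockout were above WT and overlapped with each other, since double knockout library 2 was below Cdk8 knockout library 3. Slc43a2 rose with a log2 fold change of 1.47 ± 0.27 (SE, edgeR adjusted p = 0.00373) against WT.

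Slc3a2 (ENSMUSG00000010095), the heavy chain that the basolateral light chains need, stood at 132, 137 and 143 CPM in WT libraries 1, 2 and 3, 174, 144 and 177 in the Cdk8 knockout, 139, 139 and 131 in the Cdk19 knockout and 219, 194 and 227 in the double knockout. Double knockout libraries were above all others. Slc3a2 rose with a log2 fold change of 0.64 ± 0.095 (SE, edgeR adjusted p = 0.00144) against WT. Slc7a7 (ENSMUSG00000000958), the light chain that releases cationic amino acids in exchange for neutral ones, stood at 123, 137 and 148 CPM in WT libraries 1, 2 and 3, 150.5, 134 and 168 in the Cdk8 knockout, 114, 87.1 and 109.6 in the Cdk19 knockout and 208, 164 and 185 in the double knockout. The double knockout was above WT and overlapped with the Cdk8 knockout, and the Cdk19 knockout was below WT. Slc7a7 rose with a log2 fold change of 0.45 ± 0.13 (SE, edgeR adjusted p = 0.0309) against WT. Slc7a7 lost the call in 4 of 6 fits with 1 left out, at an edgeR adjusted p of 0.0906 and 0.0571 without double knockout library 1 or 3, and 0.127 and 0.0789 without WT library 1 or 2. Its relative Slc7a6 stood at 35.6, 33.8 and 28.9 CPM in WT libraries 1, 2 and 3, 45.8, 44.8 and 38.9 in the Cdk8 knockout, 39.9, 41.6 and 45.3 in the Cdk19 knockout and 29.6, 39.7 and 35.4 in the double knockout. The double knockout overlapped with WT, and the libraries of both single knockouts were above WT.

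Among the carriers of growing cells, Slc7a5 (ENSMUSG00000040010), the light chain that imports leucine and other large neutral amino acids, stood at 86.9, 91.0 and 87.4 CPM in WT libraries 1, 2 and 3, 86.8, 78.97 and 62.98 in the Cdk8 knockout, 90.9, 99.6 and 99.6 in the Cdk19 knockout and 46.1, 53.7 and 38.9 in the double knockout. The 3 double knockout libraries were below all 9 others. Slc7a5 fell with a log2 fold change of -0.94 ± 0.13 (SE, edgeR adjusted p = 0.00113) against WT. Slc1a5 (ENSMUSG00000001918), the sodium-dependent carrier of glutamine and other neutral amino acids, stood at 225, 224 and 210.0 CPM in WT libraries 1, 2 and 3, 209, 206 and 171 in the Cdk8 knockout, 243, 223 and 217 in the Cdk19 knockout and 142, 163 and 158 in the double knockout. Again the double knockout was below all other libraries. Slc1a5 fell with a log2 fold change of -0.51 ± 0.095 (SE, edgeR adjusted p = 0.00418) against WT.

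The cationic amino acid carrier Slc7a2 (ENSMUSG00000031596) stood at 18.9, 18.4 and 23.5 CPM in WT libraries 1, 2 and 3, 7.28, 6.96 and 5.59 in the Cdk8 knockout, 13.3, 19.1 and 16.8 in the Cdk19 knockout and 3.82, 5.47 and 4.55 in the double knockout. All 6 libraries with the Cdk8 deletion were below all 6 without it, and the double knockout lay just under the Cdk8 knockout. Slc7a2 fell with a log2 fold change of -2.13 ± 0.19 (SE, edgeR adjusted p = 9.25e-05) in the double knockout. The other cationic carrier, Slc7a1 (ENSMUSG00000041313), stood at 196, 214 and 226 CPM in WT libraries 1, 2 and 3, 191, 195 and 166 in the Cdk8 knockout, 199.9, 175 and 174 in the Cdk19 knockout and 166, 175 and 139.5 in the double knockout. The double knockout was below WT and overlapped with both single knockouts. Slc7a1 fell with a log2 fold change of -0.41 ± 0.11 (SE, edgeR adjusted p = 0.0214) against WT. Slc7a1 lost the call in 3 of 6 fits with 1 left out, at an edgeR adjusted p of 0.0557 without double knockout library 3, and 0.0645 and 0.0722 without WT library 2 or 3. Slc7a11 (ENSMUSG00000027737), which exchanges cystine for glutamate, stood at 9.09, 9.004 and 16.6 CPM in WT libraries 1, 2 and 3, 10.1, 11.9 and 7.197 in the Cdk8 knockout, 6.34, 7.16 and 7.597 in the Cdk19 knockout and 5.26, 7.78 and 3.57 in the double knockout. WT library 3 stood far above the other WT libraries, and the double knockout was below WT. Slc7a11 fell with a log2 fold change of -1.06 ± 0.31 (SE, edgeR adjusted p = 0.0339) against WT. Slc7a11 lost the call in 3 of 6 fits with 1 left out, at an edgeR adjusted p of 0.0867 and 0.0891 without double knockout library 1 or 3, and 0.141 without WT library 3.

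The remaining growth carriers were not called by the standard edgeR fit in the double knockout. Slc38a1, a sodium-coupled carrier of glutamine, stood at 218, 226 and 179 CPM in WT libraries 1, 2 and 3, 189, 238 and 188 in the Cdk8 knockout, 274, 360.5 and 415 in the Cdk19 knockout and 193, 235 and 85.7 in the double knockout. The Cdk19 knockout libraries were above all others, and double knockout library 3, which has WT-level Cdk19, was the lowest. Slc38a2, a related carrier, stood at 162, 166 and 192 CPM in WT libraries 1, 2 and 3, 160.4, 206 and 172 in the Cdk8 knockout, 162, 159.7 and 180.1 in the Cdk19 knockout and 183, 156 and 178 in the double knockout. Its groups overlapped throughout. Slc1a4, which carries alanine, serine and cysteine, stood at 68.5, 74.9 and 86.1 CPM in WT libraries 1, 2 and 3, 86.01, 121 and 79.4 in the Cdk8 knockout, 98.4, 93.8 and 94.1 in the Cdk19 knockout and 75.9, 104 and 52.3 in the double knockout. Double knockout library 3 was lowest here too, library 2 was among the highest, and only the Cdk19 knockout lay apart from WT. Slc43a1, a uniporter of large neutral amino acids, stood at 5.32, 6.87 and 1.75 CPM in WT libraries 1, 2 and 3, 4.92, 3.35 and 2.699 in the Cdk8 knockout, 2.899, 2.02 and 3.83 in the Cdk19 knockout and 1.64, 2.899 and 0.9098 in the double knockout. It was low in every library and its groups overlapped. DESeq2 called Slc43a1 lower in the double knockout, with a log2 fold change of -1.34 (DESeq2 adjusted p = 0.0461), and edgeR did so with no filter and without WT library 3.

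Outside these lists, Slc6a6, the taurine carrier, stood at 193, 201 and 227 CPM in WT libraries 1, 2 and 3, 212, 271 and 255 in the Cdk8 knockout, 230.3, 212 and 246 in the Cdk19 knockout and 403, 289.5 and 266 in the double knockout. The double knockout was above WT and overlapped with the Cdk8 knockout. Slc6a6 rose with a log2 fold change of 0.63 ± 0.15 (SE, edgeR adjusted p = 0.0142) against WT. Slc6a6 lost the call in 2 of 6 fits with 1 left out, at an edgeR adjusted p of 0.0661 and 0.0536 without WT library 1 or 2. Slc6a8, the creatine carrier, stood at 84.5, 95.4 and 85.3 CPM in WT libraries 1, 2 and 3, 124, 77.6 and 132 in the Cdk8 knockout, 70.9, 49.1 and 54.6 in the Cdk19 knockout and 131, 144 and 151 in the double knockout. The double knockout was above WT, Cdk8 knockout libraries fell on both sides of WT, and the Cdk19 knockout was below it. Slc6a8 rose with a log2 fold change of 0.68 ± 0.18 (SE, edgeR adjusted p = 0.023) against WT. Slc6a8 lost the call in 5 of 6 fits with 1 left out, at an edgeR adjusted p of 0.0566 and 0.0552 without double knockout library 2 or 3, and 0.0854, 0.0501 and 0.0678 without WT library 1, 2 or 3.

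Slc38a7, which exports glutamine from lysosomes, stood at 39.9, 45.7 and 40.5 CPM in WT libraries 1, 2 and 3, 50.7, 39.4 and 55.1 in the Cdk8 knockout, 43.7, 43.2 and 41.8 in the Cdk19 knockout and 53.1, 54.2 and 55.6 in the double knockout. The double knockout libraries were close to each other and above WT. Slc38a7 rose with a log2 fold change of 0.37 ± 0.11 (SE, edgeR adjusted p = 0.0401) against WT. Slc38a7 lost the call in 6 of 6 fits with 1 left out, at an edgeR adjusted p of 0.0713, 0.087 and 0.0863 without double knockout library 1, 2 or 3, and 0.141, 0.0599 and 0.114 without WT library 1, 2 or 3. Slc7a15 stood at 9.89, 12.1 and 7.89 CPM in WT libraries 1, 2 and 3, 13.3, 6.89 and 18.2 in the Cdk8 knockout, 4.58, 4.099 and 4.62 in the Cdk19 knockout and 27.3, 20.7 and 25.7 in the double knockout. Its double knockout libraries were above all others and its Cdk19 knockout libraries below all others. Slc7a15 rose with a log2 fold change of 1.30 ± 0.28 (SE, edgeR adjusted p = 0.00833) against WT. Slc6a9, a glycine carrier, stood at 14.7, 14.98 and 14.7 CPM in WT libraries 1, 2 and 3, 15.2, 15.5 and 18.3 in the Cdk8 knockout, 12.4, 7.94 and 8.39 in the Cdk19 knockout and 23.8, 22.2 and 17.9 in the double knockout. Double knockout library 3 was under the highest Cdk8 knockout library, and all double knockout libraries were above WT. Slc6a9 was not called by edgeR, at a log2 fold change of 0.53 ± 0.17 (SE, edgeR adjusted p = 0.0503) against WT, and was called by DESeq2 (DESeq2 adjusted p = 0.0239).

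Slc6a7, a proline carrier, stood at 10.2, 8.73 and 9.01 CPM in WT libraries 1, 2 and 3, 3.84, 4.30 and 3.79 in the Cdk8 knockout, 20.6, 9.82 and 8.72 in the Cdk19 knockout and 4.096, 3.49 and 5.85 in the double knockout. All libraries with the Cdk8 deletion were below all those without it, and Cdk19 knockout library 1 stood alone at the top. Slc6a7 fell with a log2 fold change of -1.05 ± 0.30 (SE, edgeR adjusted p = 0.0327) in the double knockout. Slc6a7 lost the call in 5 of 6 fits with 1 left out, at an edgeR adjusted p of 0.0849 and 0.107 without double knockout library 1 or 2, and 0.102, 0.0677 and 0.0653 without WT library 1, 2 or 3. Slc1a3, a glutamate carrier, stood at 3.97, 7.698 and 2.52 CPM in WT libraries 1, 2 and 3, 1.28, 1.77 and 1.74 in the Cdk8 knockout, 0.742, 2.02 and 2.97 in the Cdk19 knockout and 1.502, 1.45 and 0.2599 in the double knockout. WT libraries were spread and lay above the double knockout. Slc1a3 fell with a log2 fold change of -2.14 ± 0.59 (SE, edgeR adjusted p = 0.0279) against WT. Slc1a3 lost the call in 3 of 6 fits with 1 left out, at an edgeR adjusted p of 0.0619 without double knockout library 3, and 0.0609 and 0.13 without WT library 1 or 2. Slc15a2, a peptide importer, had 66, 45 and 0 reads in WT, 18, 4 and 31 in the Cdk8 knockout and 0 in every library of the Cdk19 and the double knockout. WT library 3 also had 0 reads, so WT and the double knockout overlapped. It passed the count filter through WT and Cdk8 knockout libraries alone, so only a fall could be called and no conclusion is drawn from its call. It was called lower with an edgeR adjusted p = 0.04 and is counted among the 8 falls. At a floor of 3 counts per library, its WT mean of 2.51 CPM was at least 12.8-fold higher than the double knockout, a bound for counting error only. The WT libraries stood at 4.44, 3.09 and 0 CPM, so without library 1 both the mean and the bound would be lower. Slc15a2 lost the call in 5 of 6 fits with 1 left out, at an edgeR adjusted p of 0.0804, 0.0838 and 0.0715 without double knockout library 1, 2 or 3, and 0.112 and 0.0962 without WT library 1 or 2.

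Reported members that the standard edgeR fit called in no comparison, and that are not described above, were Slc15a3, Slc15a4, Slc36a4, Slc38a6, Slc38a10, Slc38a11, Slc6a3, Slc7a3 and Slc7a4. The largest among them was Slc38a10, at 120.0 ± 3.53 CPM in WT and 113 ± 0.823 in the double knockout (mean ± SD, n = 3). Slc6a4 was likewise not called in the standard edgeR fit between genotypes, at 66.4 ± 4.09 CPM in WT and 79.97 ± 16.9 in the double knockout, while DESeq2 called its departure from additivity at 0.74 (DESeq2 adjusted p = 0.0426). Of the reads over Slc15a3 in the stranded inhibitor libraries 12.1% of the stranded ones came from its own strand, and it shares exon bases with Tmem132a, so its genotype counts cannot be told from that gene.

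Markers of cell types were read too. Of 12 enterocyte markers 8 rose and 0 fell in the double knockout, beside 17.3% of all genes called, and their summed level stood at 13256, 13655 and 13275 CPM in WT libraries 1, 2 and 3, 14078, 14731 and 14559 in the Cdk8 knockout, 12053, 8493 and 9421 in the Cdk19 knockout and 23913, 17617 and 17910.2 in the double knockout. All double knockout sums were above all others, and no marker was at 0. Of 10 proliferation markers 7 fell and 0 rose, and their summed level stood at 1768, 1757 and 1862 CPM in WT libraries 1, 2 and 3, 1743, 1827 and 1286 in the Cdk8 knockout, 1612, 1902 and 1812 in the Cdk19 knockout and 1277, 1256 and 1127 in the double knockout. The double knockout sums were below all others, and Top2a was the most abundant. Of 8 stem cell markers 5 fell and 0 rose, with summed levels at 3239.7, 3101 and 2924 CPM in WT libraries 1, 2 and 3, 3160.4, 4024 and 2684 in the Cdk8 knockout, 3772, 5655 and 4941 in the Cdk19 knockout and 2336, 2426 and 2194 in the double knockout. Again the double knockout was lowest, the Cdk19 knockout had the highest sum, and Olfm4 was the most abundant. The part of these cell types in the transporter results was not tested.

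In the Cdk8 knockout against WT, 2 of 40 members (5.0%) were called by edgeR, beside 5.15% of all 15602 genes, so the members' share was near the background. Both are carriers described above whose RNA fell. Slc7a2 fell with a log2 fold change of -1.62 ± 0.18 (SE, edgeR adjusted p = 0.000566). Slc6a7 fell with a log2 fold change of -1.22 ± 0.30 (SE, edgeR adjusted p = 0.0406). Slc6a7 lost the call in 6 of 6 fits with 1 left out, at an edgeR adjusted p of 0.115, 0.0712 and 0.102 without Cdk8 knockout library 1, 2 or 3, and 0.14, 0.0909 and 0.0832 without WT library 1, 2 or 3. Absorptive carriers whose Cdk8 knockout libraries were all above WT were not called in the standard edgeR fit, among them Slc15a1 at 0.72 ± 0.23 (SE, edgeR adjusted p = 0.0914) on the log2 scale. Slc43a2 was at 0.86 ± 0.26 (SE, edgeR adjusted p = 0.0863). DESeq2 called both, Slc15a1 at 0.73 (DESeq2 adjusted p = 0.0357) and Slc43a2 at 0.86 (DESeq2 adjusted p = 0.0211), and edgeR called both higher without Cdk8 knockout library 2 and with no filter. Slc7a6 was called higher by DESeq2, Slc3a2 and Slc6a8 higher without Cdk8 knockout library 2, and Slc1a3 lower with no filter and without the 2 doubted libraries. With only the groups compared edgeR called Slc6a19 and Slc7a8 higher and Slc6a20a lower. Both Slc6a19 and Slc6a20a were also called with no filter, and the latter without the 2 doubted libraries. Without Cdk8 knockout library 2 the count was 5, without any 1 of WT libraries 1, 2 and 3 or Cdk8 knockout libraries 1 and 3 it was 1, with DESeq2 it was 5, and without the 2 libraries at the WT level of Cdk19 it was 4. Of all genes these fits called 699, 196 to 464, 1276 and 1309, beside 804 in the standard fit. All comparisons with WT share the same 3 WT libraries.

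In the Cdk19 knockout against WT, edgeR called 0 of 40 members, beside 0% of all 15602 genes. At an unadjusted p under 0.05 there were 16 members, beside 10.8% of all genes, and DESeq2 called 5 (beside 298 of all genes), all lower, namely Slc15a1, Slc6a19, Slc6a20a, Slc6a20b and Slc7a15. The log2 fold change of Slc6a20a was -1.11 ± 0.18 (SE, edgeR adjusted p = 0.0969). That of Slc6a19 was -0.66 ± 0.18 (SE, edgeR adjusted p = 0.188). That of Slc38a1, which was higher, was 0.75 ± 0.28 (SE, edgeR adjusted p = 0.332).

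Without Cdk19 knockout library 1, which sits at the WT level of Cdk19, edgeR called 4 members in that comparison, all lower, beside 521 of all genes. In that fit Slc6a20a had a log2 fold change of -1.31 (edgeR adjusted p = 0.00325). Slc6a19 had -0.86 (edgeR adjusted p = 0.0214). Slc6a9 had -0.84 (edgeR adjusted p = 0.0138). Slc6a20b had -0.58 (edgeR adjusted p = 0.0202). With both doubted libraries left out the count was 5, beside 666 of all genes, the same 4 and Slc38a1, which was higher with 0.91 (edgeR adjusted p = 0.00641).

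The double knockout was also set against the Cdk8 knockout. There edgeR called 0 of 40 members, beside 0.0256% of all 15602 genes, with 17 members at an unadjusted p under 0.05, beside 15.5% of all genes, and 6 called by DESeq2, beside 402 of all genes. The log2 fold change of Slc7a8 was 1.09 ± 0.27 (SE, edgeR adjusted p = 0.141). For Slc7a5 it was -0.72 ± 0.13 (SE, edgeR adjusted p = 0.0906), and neither gene's libraries overlapped between these 2 groups. Without Cdk8 knockout library 3 edgeR called 4, beside 839 of all genes, namely Slc3a2 and Slc7a15 higher and Slc1a5 and Slc7a5 lower. Without the 2 libraries at the WT level of Cdk19 it called 0, beside 22 of all genes. The mean chi-square per gene between Cdk8 knockout library 3 and double knockout libraries 1, 2 and 3 was 35.4, 10.7 and 14.4, beside 22.4 to 35.9 among the double knockout libraries, so library 3 stood nearer to 2 of them than they stood to each other. Without Cdk8 knockout library 1 or 2 edgeR called 0 members, beside 3 or 6 of all genes. Why the counts moved without library 3 was not tested.

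An interaction test compared the double knockout with the added log2 effects of both single knockouts. edgeR called 0 of 40 members, beside 0.0256% of all 15602 genes, with 19 members at an unadjusted p under 0.05, beside 14.5% of all genes, and 14 called by DESeq2, beside 481 of all genes. The departure of Slc7a8 on the log2 scale was 1.61 ± 0.39 (SE, edgeR adjusted p = 0.107). For Slc6a19 it was 1.29 ± 0.25 (SE, edgeR adjusted p = 0.0693). For Slc7a5 it was -0.85 ± 0.18 (SE, edgeR adjusted p = 0.0843). Without Cdk19 knockout library 1 edgeR called 9 members, without Cdk8 knockout library 3 it called 7, without double knockout library 2 it called 5, and without both libraries at the WT level of Cdk19 it called 9. Of all genes these 4 fits called 467, 392, 71 and 728. Those called without Cdk19 knockout library 1 were Slc6a20a, Slc7a15, Slc6a9, Slc6a8, Slc3a1, Slc7a9, Slc7a8 and Slc6a19, all positive, and Slc7a5, negative.

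Partners of the carriers and the peptidases that release their substrates were read from a list of 13 genes, of which 12 were tested. In the double knockout 9 of 12 rose and 0 fell, beside 17.3% of all genes called, with a median log2 fold change of 0.92 beside -0.01 over all genes. The peptidase Naaladl1 rose with a log2 fold change of 2.82 ± 0.54 (SE, edgeR adjusted p = 0.00486). Ace, angiotensin-converting enzyme, rose with a log2 fold change of 1.61 ± 0.34 (SE, edgeR adjusted p = 0.00841). Anpep, aminopeptidase N of the brush border, rose with a log2 fold change of 1.49 ± 0.22 (SE, edgeR adjusted p = 0.00144). In the Cdk8 knockout 1 of 12 was called, beside 5.15% of all genes. It was Anpep, with a log2 fold change of 0.94 ± 0.22 (SE, edgeR adjusted p = 0.0307). Their summed level stood at 2297, 2456 and 2257 CPM in WT libraries 1, 2 and 3, 3777, 2453 and 4026 in the Cdk8 knockout, 2378, 1868 and 1892 in the Cdk19 knockout and 5596, 4417 and 5421 in the double knockout. Every double knockout sum was above every other library, and Anpep was the most abundant.

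The list of 18 genes of the amino acid response gave calls in both directions. In the double knockout 2 rose and 4 fell, beside 17.3% of all genes called. Nupr1, a stress-induced chromatin protein, rose with a log2 fold change of 1.01 ± 0.24 (SE, edgeR adjusted p = 0.0136). Chac1, which degrades glutathione, fell with a log2 fold change of -0.97 ± 0.30 (SE, edgeR adjusted p = 0.0446). The transcription factor Atf5 fell with a log2 fold change of -0.74 ± 0.18 (SE, edgeR adjusted p = 0.0162). In the Cdk8 knockout 1 rose and 1 fell, beside 5.15% of all genes called. These were Sesn2 with a log2 fold change of 0.54 ± 0.096 (SE, edgeR adjusted p = 0.00933) and Atf5 with a log2 fold change of -0.74 ± 0.18 (SE, edgeR adjusted p = 0.0375). None was called in the Cdk19 knockout by edgeR.

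In the standard fit with Senexin B the members were called about as often as all genes. After 24 h 12 of 40 members (30.0%) were called against DMSO, beside 27.5% of all 15467 genes, so the members' share was near the background. Of these 6 rose, beside 14.8% of all genes, and 6 fell, beside 12.7%. After 16 h 4 of 40 (10.0%) were called, beside 7.75%, with 2 higher and 2 lower. The glutamate carrier Slc1a1 and the exchanger Slc7a8 rose and the glutamine carrier Slc38a1 fell at both times. By role, at 24 h 1 of 8 brush border carriers rose and 1 fell, 2 of 5 basolateral carriers rose, and of 10 growth carriers 1 rose and 2 fell. Of 4 lysosomal carriers 1 fell, and Slc1a3, the 1 gene tested of the glutamate list, rose. Of 7 carriers of neurotransmitters and osmolytes 1 rose and 2 fell, and 0 of 5 other members were called by edgeR. The median log2 fold change at 24 h was -0.11 over the members and 0.00 over all genes tested. The replicate number was also used as a block. Libraries of the same number correlated between treatment and vehicle, but some of unlike number did so as well. Pairing by number was thus clear for library 1 only. With the block the counts were 10 of 40 at 16 h, beside 2293 of all genes, and 17 of 40 at 24 h, beside 5712. Without 24 h DMSO library 1 the 24 h count was 7, beside 3014 of all genes, and without 16 h DMSO library 1 the 16 h count was 8, beside 1819. In both of these 16 h fits, with the block and without DMSO library 1, the members' share was above that of all genes. This difference was not tested. The change of the Senexin B effect from 16 h to 24 h was called for 0 of 40 members by edgeR, beside 0% of all genes, with 6 at an unadjusted p under 0.05, beside 12.9% of all genes. DESeq2 called 0 members, beside 67 of all genes.

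**Figure D2:**
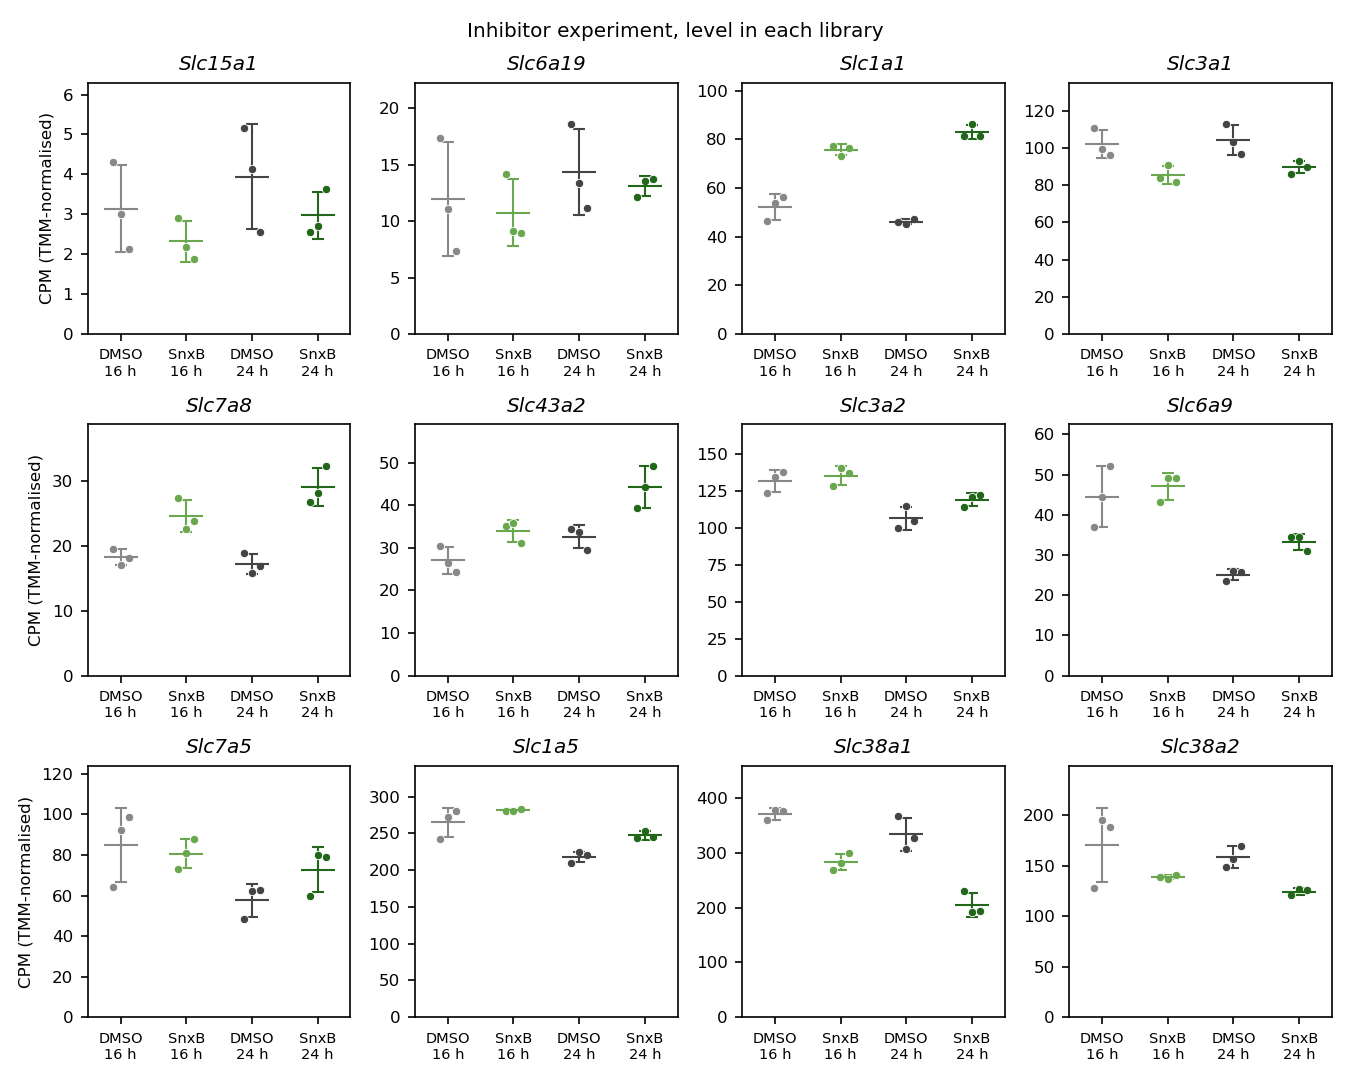
CPM of 12 transporters (linear axes from 0) in organoids after 16 h or 24 h with DMSO or Senexin B, with points for libraries and bars for the mean ± SD (n = 3). Slc1a1 and Slc7a8 are higher and Slc38a1 is lower with Senexin B at both times, without overlap.

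At the brush border, Slc1a1 stood at 46.3, 53.9 and 56.4 CPM with DMSO and 77.4, 73.05 and 76.6 with Senexin B at 16 h, and 46.2, 45.3 and 47.2 with DMSO and 81.2, 86.2 and 81.5 with Senexin B at 24 h. Treated libraries were above vehicle at both times. Slc1a1 rose with a log2 fold change of 0.54 ± 0.073 (SE, edgeR adjusted p = 0.000474) at 16 h. At 24 h it rose with a log2 fold change of 0.84 ± 0.073 (SE, edgeR adjusted p = 5.27e-06). Slc3a1, the heavy chain of the cystine carrier, stood at 111, 99.7 and 96.2 CPM with DMSO and 83.7, 91.0 and 81.6 with Senexin B at 16 h, and 113, 103 and 96.95 with DMSO and 86.3, 92.9 and 89.99 with Senexin B at 24 h. Treated libraries were below vehicle at both times. Slc3a1 fell at 24 h with a log2 fold change of -0.22 ± 0.076 (SE, edgeR adjusted p = 0.0466). Slc3a1 lost the call in 5 of 6 fits with 1 left out, at an edgeR adjusted p of 0.181 and 0.0863 without 24 h DMSO library 1 or 2, and 0.127, 0.0769 and 0.107 without 24 h Senexin B library 1, 2 or 3. With the replicate block it was also called at 16 h, at -0.26 (edgeR adjusted p = 0.0173). Its light chain Slc7a9 stood at 59.4, 47.3 and 41.6 CPM with DMSO and 50.96, 48.4 and 43.02 with Senexin B at 16 h, and 63.1, 58.4 and 48.5 with DMSO and 51.4, 59.4 and 58.9 with Senexin B at 24 h. Slc7a9 overlapped between treatments at both times.

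The peptide importer Slc15a1 stood at 4.299, 3.0 and 2.12 CPM with DMSO and 2.899, 2.17 and 1.89 with Senexin B at 16 h, and 5.15, 4.12 and 2.55 with DMSO and 2.56, 2.71 and 3.63 with Senexin B at 24 h. Treated and vehicle libraries overlapped at both times. Slc15a1 was not called at 24 h, at a log2 fold change of -0.41 ± 0.28 (SE, edgeR adjusted p = 0.294). Slc6a19 stood at 17.3, 11.1 and 7.38 CPM with DMSO and 14.2, 9.14 and 8.91 with Senexin B at 16 h, and 18.6, 13.4 and 11.2 with DMSO and 12.1, 13.5 and 13.7 with Senexin B at 24 h. Vehicle libraries were widely spread and library 1 was highest, and treatments overlapped. Slc6a20a stood at 67.98, 50.01 and 30.97 CPM with DMSO and 55.4, 44.1 and 39.2 with Senexin B at 16 h, and 91.2, 71.8 and 53.5 with DMSO and 56.4, 63.6 and 70.1 with Senexin B at 24 h. It showed the same spread of the vehicle libraries with library 1 highest. Slc6a20b stood at 2.499, 1.91 and 2.09 CPM with DMSO and 2.86, 1.95 and 1.59 with Senexin B at 16 h, and 3.19, 2.82 and 1.93 with DMSO and 2.67, 2.49 and 3.27 with Senexin B at 24 h. Slc6a20b was low throughout and overlapped between treatments. Of the stranded reads over it 6.18% came from its own strand, beside 92.27% for Slc38a1, which shares no exon bases with another gene. These Slc6a20b counts therefore cannot be told from wrong-strand reads of Sacm1l. Slc36a1 stood at 25.5, 23.3 and 19.1 CPM with DMSO and 24.5, 21.7 and 21.8 with Senexin B at 16 h, and 29.02, 24.04 and 25.3 with DMSO and 24.6, 22.9 and 23.6 with Senexin B at 24 h. Treatments overlapped for Slc36a1 as well.

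Of the basolateral carriers, Slc7a8 stood at 19.5, 17.1 and 18.1 CPM with DMSO and 27.3, 22.5 and 23.9 with Senexin B at 16 h, and 18.8, 15.8 and 16.9 with DMSO and 26.7, 28.1 and 32.3 with Senexin B at 24 h. Treated libraries were above vehicle at both times. Slc7a8 rose with a log2 fold change of 0.75 ± 0.10 (SE, edgeR adjusted p = 0.000179) at 24 h. At 16 h it rose with a log2 fold change of 0.43 ± 0.10 (SE, edgeR adjusted p = 0.0185). Slc7a8 lost the call in 3 of 6 fits with 1 left out, at an edgeR adjusted p of 0.0745 and 0.0525 without 16 h DMSO library 2 or 3, and 0.0879 without 16 h Senexin B library 1. Slc43a2 stood at 30.5, 26.3 and 24.3 CPM with DMSO and 35.1, 35.7 and 31.1 with Senexin B at 16 h, and 34.5, 33.7 and 29.6 with DMSO and 39.2, 44.4 and 49.1 with Senexin B at 24 h. Here too every treated library was above vehicle of the same time. Slc43a2 rose at 24 h with a log2 fold change of 0.44 ± 0.10 (SE, edgeR adjusted p = 0.00644). At 16 h it was not called by edgeR, at a log2 fold change of 0.33 ± 0.10 (SE, edgeR adjusted p = 0.0692), and was called by DESeq2 (DESeq2 adjusted p = 0.0326). Slc3a2 stood at 123, 134 and 137 CPM with DMSO and 128, 140.4 and 137 with Senexin B at 16 h, and 99.4, 115 and 105 with DMSO and 114, 120.5 and 122 with Senexin B at 24 h. Treated and vehicle libraries overlapped at both times. Slc7a7 stood at 99.6, 73.1 and 77.1 CPM with DMSO and 73.2, 71.1 and 76.1 with Senexin B at 16 h, and 105, 92.7 and 86.99 with DMSO and 80.7, 75.5 and 83.6 with Senexin B at 24 h. At 24 h treated libraries were below vehicle. Slc7a7 was not called in the standard fit and was called lower at 24 h with only the groups compared and with the replicate block, in the latter at -0.24 (edgeR adjusted p = 0.0269). With the block Slc3a2 was called higher at 24 h, at 0.16 (edgeR adjusted p = 0.0296), and Slc43a2 at 16 h, at 0.33 (edgeR adjusted p = 0.0329). Slc7a6 stood at 50.1, 59.97 and 62.2 CPM with DMSO and 52.6, 55.9 and 54.6 with Senexin B at 16 h, and 47.0, 52.5 and 56.5 with DMSO and 48.5, 53.1 and 53.7 with Senexin B at 24 h. Its libraries overlapped between treatments.

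Of the growth carriers, Slc38a1 stood at 359, 379 and 376 CPM with DMSO and 269, 281 and 299 with Senexin B at 16 h, and 367, 307 and 327 with DMSO and 230.2, 192 and 193 with Senexin B at 24 h. Treated libraries were below vehicle at both times. Slc38a1 fell with a log2 fold change of -0.39 ± 0.083 (SE, edgeR adjusted p = 0.00986) at 16 h. At 24 h it fell with a log2 fold change of -0.70 ± 0.084 (SE, edgeR adjusted p = 7.62e-05). Slc38a2 stood at 128, 195 and 188 CPM with DMSO and 139, 137 and 141 with Senexin B at 16 h, and 149, 157 and 169.8 with DMSO and 120.5, 126 and 126 with Senexin B at 24 h. At 24 h all treated libraries were below vehicle, and at 16 h vehicle library 1 fell under the treated ones. Slc38a2 fell at 24 h with a log2 fold change of -0.35 ± 0.12 (SE, edgeR adjusted p = 0.0381). Slc38a2 lost the call in 5 of 6 fits with 1 left out, at an edgeR adjusted p of 0.0752 and 0.123 without 24 h DMSO library 2 or 3, and 0.092, 0.0873 and 0.0851 without 24 h Senexin B library 1, 2 or 3. Slc1a5 stood at 243, 272 and 280.5 CPM with DMSO and 280.2, 280.2 and 284 with Senexin B at 16 h, and 210.4, 224 and 220.1 with DMSO and 244, 254 and 245 with Senexin B at 24 h. At 24 h treated libraries were above vehicle. Slc1a5 rose at 24 h with a log2 fold change of 0.18 ± 0.063 (SE, edgeR adjusted p = 0.0452). Slc1a5 lost the call in 6 of 6 fits with 1 left out, at an edgeR adjusted p of 0.146, 0.0699 and 0.0949 without 24 h DMSO library 1, 2 or 3, and 0.0676, 0.146 and 0.0941 without 24 h Senexin B library 1, 2 or 3.

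Slc7a5 stood at 64.2, 92.3 and 98.5 CPM with DMSO and 73.3, 80.7 and 87.7 with Senexin B at 16 h, and 48.2, 62.1 and 62.6 with DMSO and 59.8, 79.7 and 78.9 with Senexin B at 24 h. Treatments overlapped, with library 1 lowest in all 4 groups. Slc7a5 was not called at 24 h, at a log2 fold change of 0.34 ± 0.15 (SE, edgeR adjusted p = 0.118). With the replicate block its log2 fold change was 0.34 (edgeR adjusted p = 0.00182). Slc7a11 stood at 9.85, 19.6 and 23.1 CPM with DMSO and 19.4, 29.96 and 30.8 with Senexin B at 16 h, and 10.1, 13.7 and 15.9 with DMSO and 16.7, 14.9 and 16.1 with Senexin B at 24 h. It overlapped between treatments at both times. At 16 h Slc7a11 was not called, at a log2 fold change of 0.61 ± 0.25 (SE, edgeR adjusted p = 0.157), and with the replicate block it was at 0.63 (edgeR adjusted p = 0.0128).

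The cationic carriers were not called with Senexin B in the standard edgeR fit, while Slc7a2 was called at 16 h without 16 h DMSO library 1 and Slc7a3 at 24 h without 24 h DMSO library 3. Slc7a1 stood at 175, 246 and 209 CPM with DMSO and 179.5, 198 and 208 with Senexin B at 16 h, and 165, 198 and 197 with DMSO and 174, 207 and 190.0 with Senexin B at 24 h. Slc7a2 stood at 12.3, 18.1 and 17.3 CPM with DMSO and 13.6, 12.7 and 14.4 with Senexin B at 16 h, and 19.3, 19.7 and 19.8 with DMSO and 15.96, 19.8 and 17.8 with Senexin B at 24 h. Both overlapped between treatments at both times. Slc7a3, another cationic carrier, stood at 0.331, 0.282 and 0.396 CPM with DMSO and 0.446, 0.367 and 0.517 with Senexin B at 16 h, and 0.2804, 0.282 and 0.586 with DMSO and 0.631, 0.513 and 0.661 with Senexin B at 24 h. Slc1a4 stood at 196, 264 and 268 CPM with DMSO and 234, 229 and 256 with Senexin B at 16 h, and 155, 184 and 204 with DMSO and 171, 149.8 and 138 with Senexin B at 24 h. Slc43a1 stood at 0.221, 0.459 and 0.216 CPM with DMSO and 0.223, 0.477 and 0.259 with Senexin B at 16 h, and 0.526, 0.352 and 0.207 with DMSO and 0.594, 0.3301 and 0.514 with Senexin B at 24 h. Slc7a3 and Slc43a1 were near the limit of counting, and all 3 overlapped between treatments at each time.

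Among the other members, Slc6a9 stood at 36.9, 44.5 and 52.1 CPM with DMSO and 43.1, 49.04 and 49.04 with Senexin B at 16 h, and 23.6, 25.9 and 25.8 with DMSO and 34.6, 34.4 and 31.02 with Senexin B at 24 h. At 24 h treated libraries were above vehicle. Slc6a9 rose at 24 h with a log2 fold change of 0.41 ± 0.11 (SE, edgeR adjusted p = 0.0127). Slc6a9 lost the call in 1 of 6 fits with 1 left out, at an edgeR adjusted p of 0.0517 without 24 h DMSO library 1. Slc1a3 stood at 1.25, 1.24 and 1.01 CPM with DMSO and 2.12, 1.83 and 1.59 with Senexin B at 16 h, and 1.89, 1.48 and 1.72 with DMSO and 2.49, 3.19 and 3.27 with Senexin B at 24 h. Treated libraries were above vehicle at both times, at low levels. Slc1a3 rose at 24 h with a log2 fold change of 0.81 ± 0.18 (SE, edgeR adjusted p = 0.00428). With the replicate block it was also called at 16 h, at 0.66 (edgeR adjusted p = 0.044). Slc6a4, which takes up serotonin, stood at 59.6, 60.3 and 55.6 CPM with DMSO and 48.02, 45.6 and 45.2 with Senexin B at 16 h, and 55.9, 57.4 and 51.9 with DMSO and 46.6, 52.3 and 51.4 with Senexin B at 24 h. Treated libraries were below vehicle at 16 h and overlapped with it at 24 h. Slc6a4 fell at 16 h with a log2 fold change of -0.34 ± 0.068 (SE, edgeR adjusted p = 0.00697).

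Slc6a7 stood at 14.1, 11.8 and 10.3 CPM with DMSO and 9.37, 8.08 and 9.17 with Senexin B at 16 h, and 21.3, 12.3 and 10.6 with DMSO and 9.57, 5.83 and 7.42 with Senexin B at 24 h. Treated libraries were below vehicle at both times, and vehicle library 1 was highest at 24 h. Slc6a7 fell at 24 h with a log2 fold change of -0.95 ± 0.23 (SE, edgeR adjusted p = 0.00781), and without 24 h DMSO library 1 the value was -0.59 and still called. Slc38a9, a lysosomal carrier that senses arginine, stood at 19.4, 20.1 and 17.8 CPM with DMSO and 16.1, 18.8 and 19.3 with Senexin B at 16 h, and 23.8, 22.2 and 24.2 with DMSO and 16.8, 19.9 and 19.8 with Senexin B at 24 h. At 24 h treated libraries were below vehicle. Slc38a9 fell at 24 h with a log2 fold change of -0.31 ± 0.094 (SE, edgeR adjusted p = 0.0239). Slc38a9 lost the call in 3 of 6 fits with 1 left out, at an edgeR adjusted p of 0.0654 and 0.0753 without 24 h DMSO library 1 or 3, and 0.0922 without 24 h Senexin B library 1. Slc6a5, a glycine carrier, stood at 1.29, 1.98 and 1.41 CPM with DMSO and 1.23, 1.65 and 2.03 with Senexin B at 16 h, and 1.75, 1.76 and 1.93 with DMSO and 1.15, 1.14 and 1.21 with Senexin B at 24 h. It was low in every library, and at 24 h below vehicle. Slc6a5 fell at 24 h with a log2 fold change of -0.64 ± 0.22 (SE, edgeR adjusted p = 0.0428). Slc6a5 lost the call in 6 of 6 fits with 1 left out, at an edgeR adjusted p of 0.0789, 0.0776 and 0.112 without 24 h DMSO library 1, 2 or 3, and 0.0886, 0.117 and 0.0908 without 24 h Senexin B library 1, 2 or 3.

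Other members that edgeR called with Senexin B in the fit with the replicate block, and not in the standard fit, were Slc15a3, Slc38a7 and Slc6a6. Fits without the block also called them, Slc15a3 with no filter at both times, Slc38a7 at 16 h without 16 h DMSO library 1 and Slc6a6 at 24 h with only the groups compared. Slc15a3, a peptide and histidine carrier of endolysosomes, stood at 3.38, 1.98 and 2.701 CPM with DMSO and 5.02, 4.51 and 3.88 with Senexin B at 16 h, and 3.29, 4.02 and 1.55 with DMSO and 5.71, 4.04 and 4.66 with Senexin B at 24 h. Treated libraries were above vehicle at both times. With the block Slc15a3 was at 0.74 (edgeR adjusted p = 0.0412) at 16 h and 0.71 (edgeR adjusted p = 0.0202) at 24 h, and DESeq2 called it at 24 h at 0.70 (DESeq2 adjusted p = 0.0419). Since 12.1% of the stranded reads over Slc15a3 came from its own strand, part of these counts may be wrong-strand reads of Tmem132a, which was not tested. Slc6a6 stood at 259, 311 and 289 CPM with DMSO and 238, 265 and 283 with Senexin B at 16 h, and 277, 288 and 299 with DMSO and 231, 258 and 265 with Senexin B at 24 h. At 24 h treated libraries were below vehicle. With the block Slc6a6 was at -0.20 (edgeR adjusted p = 0.0154) at 24 h. Slc38a7 stood at 43.9, 39.9 and 39.8 CPM with DMSO and 48.1, 45.4 and 47.01 with Senexin B at 16 h, and 43.4, 40.7 and 39.0 with DMSO and 45.5, 42.1 and 41.7 with Senexin B at 24 h. At 16 h treated libraries were above vehicle. With the block Slc38a7 was at 0.19 (edgeR adjusted p = 0.0372) at 16 h.

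Partner and peptidase genes gave 4 rises and 1 fall of 12 tested at 24 h, beside 27.5% of all genes called (14.8% higher and 12.7% lower). Enpep, glutamyl aminopeptidase, rose with a log2 fold change of 1.04 ± 0.21 (SE, edgeR adjusted p = 0.00236). Xpnpep2, aminopeptidase P, fell with a log2 fold change of -0.99 ± 0.11 (SE, edgeR adjusted p = 6.24e-05). Anpep rose with a log2 fold change of 0.86 ± 0.23 (SE, edgeR adjusted p = 0.0136). At 16 h the list gave 3 rises and 1 fall, beside 7.75% of all genes called. The largest change was that of Anpep, with a log2 fold change of 0.81 ± 0.23 (SE, edgeR adjusted p = 0.046). Enpep had 0.73 ± 0.21 (SE, edgeR adjusted p = 0.0454) on the log2 scale. Xpnpep2 had -0.62 ± 0.12 (SE, edgeR adjusted p = 0.00463).

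Genes of the amino acid response gave 8 rises and 2 falls of 18 at 24 h, beside the same shares of all genes. Nupr1 rose with a log2 fold change of 0.84 ± 0.11 (SE, edgeR adjusted p = 0.000124). Mthfd2, an enzyme of mitochondrial folate metabolism, rose with a log2 fold change of 0.81 ± 0.20 (SE, edgeR adjusted p = 0.00746). Pycr1, an enzyme of proline synthesis, rose with a log2 fold change of 0.69 ± 0.13 (SE, edgeR adjusted p = 0.00206). At 16 h 2 rose and 1 fell, beside 7.75% of all genes called. Nupr1 rose there with a log2 fold change of 0.55 ± 0.11 (SE, edgeR adjusted p = 0.00575). Ddit4, an inhibitor of mTORC1 signalling, fell with a log2 fold change of -0.41 ± 0.088 (SE, edgeR adjusted p = 0.011). Aldh18a1, an enzyme of proline synthesis, rose with a log2 fold change of 0.38 ± 0.057 (SE, edgeR adjusted p = 0.00103).

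Of the enterocyte markers 3 of 12 rose and 3 fell at 24 h, beside 27.5% of all genes called, and their summed level stood at 8207, 7409 and 6926 CPM with DMSO and 6632, 6483 and 6519 with Senexin B at 16 h, and 7573, 7172 and 6548 with DMSO and 6142, 6524 and 6728 with Senexin B at 24 h. No marker was at 0. Treated sums were below vehicle at 16 h and overlapped with it at 24 h. Of the proliferation markers 5 of 10 rose and 0 fell at 24 h, with summed levels at 1566, 1925 and 1900.5 CPM with DMSO and 1676, 1832 and 1771 with Senexin B at 16 h, and 1409, 1704 and 1794 with DMSO and 1601, 1893 and 1893 with Senexin B at 24 h. These sums overlapped too, and Top2a was the most abundant. Of the stem cell markers 1 of 8 rose and 3 fell at 24 h, with summed levels at 1935, 2614 and 2703 CPM with DMSO and 2402, 2249 and 2519.8 with Senexin B at 16 h, and 2154, 2329 and 2627 with DMSO and 2447, 2156 and 2249.7 with Senexin B at 24 h. They overlapped, and Olfm4 was the most abundant. The part of these cell types in the transporter results was not tested.

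Over time in DMSO alone the members were called about as often as all genes. At 24 h against 16 h, 5 of 40 members (12.5%) were called, beside 11.1% of all 15467 genes, and all 5 fell. With only the groups compared, 1 was called, Slc6a9, beside 385 genes in all. Slc6a9 fell with a log2 fold change of -0.83 ± 0.11 (SE, edgeR adjusted p = 0.00145) and was called whichever of the 6 libraries was left out. Slc7a5 fell with a log2 fold change of -0.56 ± 0.15 (SE, edgeR adjusted p = 0.0326). Slc1a4 fell with a log2 fold change of -0.42 ± 0.12 (SE, edgeR adjusted p = 0.0407). Slc3a2 fell with a log2 fold change of -0.31 ± 0.070 (SE, edgeR adjusted p = 0.0151). Slc1a5 fell with a log2 fold change of -0.28 ± 0.063 (SE, edgeR adjusted p = 0.0146). In the values above, 16 h libraries were all above 24 h libraries for each of these genes except Slc1a4, where 16 h library 1 lay inside the range at 24 h. These comparisons share DMSO libraries with those of Senexin B.

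Slc7a5 lost the call in 5 of 6 fits with 1 left out, at an edgeR adjusted p of 0.0778 and 0.148 without 16 h DMSO library 2 or 3, and 0.134, 0.0536 and 0.0525 without 24 h DMSO library 1, 2 or 3. Slc1a4 lost the call in 4 of 6 fits with 1 left out, at an edgeR adjusted p of 0.103 and 0.168 without 16 h DMSO library 2 or 3, and 0.166 and 0.086 without 24 h DMSO library 1 or 2. Slc3a2 lost the call in 3 of 6 fits with 1 left out, at an edgeR adjusted p of 0.0731 without 16 h DMSO library 3, and 0.0746 and 0.0518 without 24 h DMSO library 1 or 3. Slc1a5 lost the call in 2 of 6 fits with 1 left out, at an edgeR adjusted p of 0.0737 without 16 h DMSO library 3, and 0.0679 without 24 h DMSO library 1. The count was 12 without 16 h DMSO library 1, 1 without 16 h library 3 or without 24 h library 1, 3 without 24 h library 2 or 3, and 10 with the replicate block. Of all genes the standard fit called 1719, and these fits called 2296, 434 or 522, 1095 or 946, and 3281, in the same order. Of the 12 without 16 h DMSO library 1, 4 were higher and 8 lower, and of the 10 with the block 5 were higher and 5 lower, the higher ones being Slc38a6, Slc38a9, Slc38a11, Slc6a20a and Slc7a2. DESeq2 called Slc38a6 and Slc38a9 higher beside the 5. The median log2 fold change was 0.10 over the members and 0.00 over all genes tested.

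Over the same 8 h the amino acid response list had 13 of 18 genes called lower and 0 higher, beside 11.1% of all genes called, and a median log2 fold change of -0.61 beside 0.00 over all genes. Mthfd2 fell with a log2 fold change of -1.23 ± 0.20 (SE, edgeR adjusted p = 0.00307). Chac1 fell with a log2 fold change of -1.01 ± 0.24 (SE, edgeR adjusted p = 0.0198). Trib3, a pseudokinase induced by ATF4, fell with a log2 fold change of -0.96 ± 0.18 (SE, edgeR adjusted p = 0.00668). The summed level of the list stood at 1692, 2141 and 2146 CPM with DMSO and 2022, 2061 and 2060.0 with Senexin B at 16 h, and 1272, 1420.1 and 1384 with DMSO and 1666, 1775 and 1703 with Senexin B at 24 h. Vehicle libraries were all lower at 24 h than at 16 h, Senexin B libraries at 24 h were all above vehicle of that time, and Aldh18a1 was the most abundant. Of the partners and peptidases 1 rose, Xpnpep2, with a log2 fold change of 0.38 ± 0.11 (SE, edgeR adjusted p = 0.0431).

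Knockout and inhibitor share no libraries, so their calls can be set side by side. Of 38 members reported in both, 18 were called in the double knockout against WT and 11 with Senexin B at 24 h, and 5 in both. That is 5 of the 18, beside 11 of all 38, so the 18 were called with Senexin B about as often as members in general. Slc7a8 and Slc43a2 rose and Slc6a7 fell in both. Slc1a3 and Slc1a5 fell in the double knockout and rose with Senexin B. Over the 38 members the Pearson r of the log2 fold changes was -0.13, across genes, which are not independent replicates. Differences between the experiments were not tested, and they differ in RNA selection as well as in treatment.

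**Figure D3:**
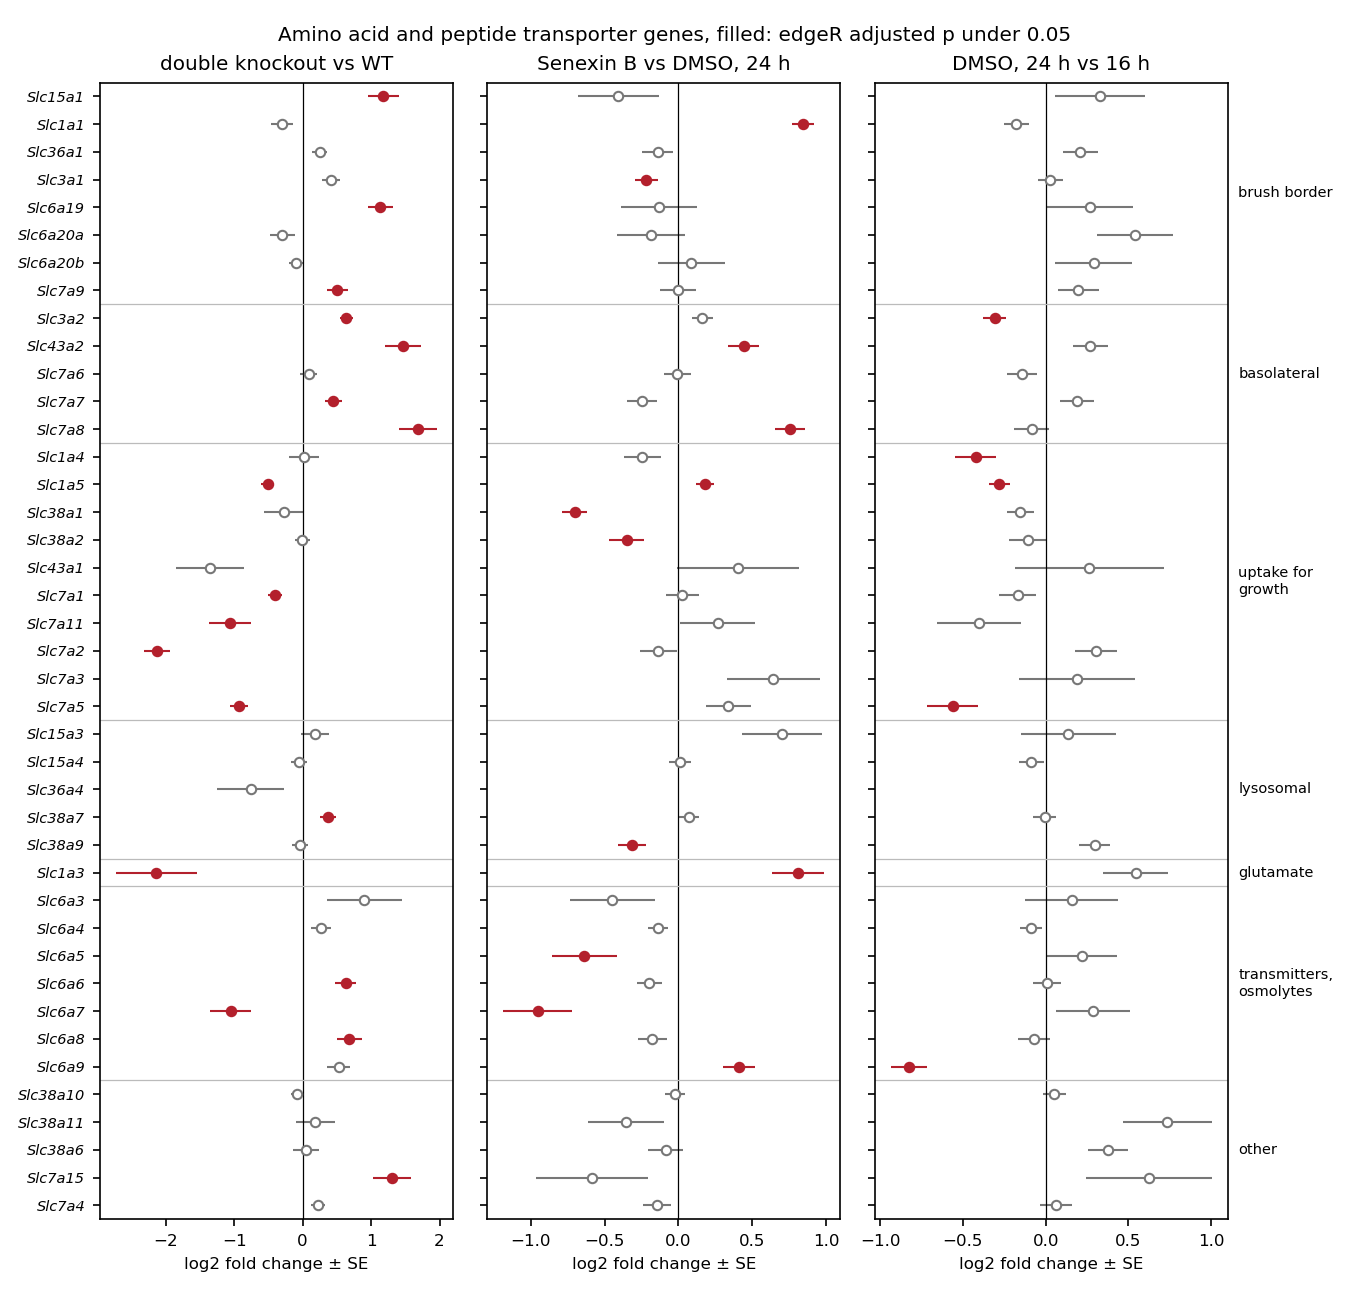
Log2 fold change ± SE (n = 3 libraries per group) of 41 members, grouped by role, for double knockout against WT, Senexin B against DMSO at 24 h and DMSO at 24 h against 16 h, with filled red points for edgeR adjusted p under 0.05. Slc15a2, which was called lower in the double knockout, is not drawn. Slc7a8 is called higher in the first and second panels, and the 5 calls over time in DMSO are all lower.

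Promoters of the growth carriers that were called in at least 1 comparison were searched on both strands for the letters TGATG, any base and AA, a motif bound by ATF4 with its C/EBP partners, since 3 of them, and genes of the amino acid response list, fell over time in DMSO. The sequences are those of RefSeq on GRCm38.p6, 250 bases before to 50 bases after the start of transcription. Of these 8 members 4 were in the promoter table (Slc1a4, Slc38a2, Slc7a1 and Slc7a11), and 2 of them held the motif. Of all 32 reported members found there, 3 held it (9.38%), beside 4.51% of all 27025 genes and 3.97% of all 32851 promoters. The promoter of Slc7a11 held it on both strands, 66 and 47 bases before the start, and that of Slc1a4 held it next to the start. The third was Slc7a7, which is not in that list. A match describes these letters and does not show binding.

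The stretches around the motif are shown for the 2 growth carriers that hold it, 5′ to 3′ on the gene's strand, with the motif in capitals. That of Slc7a11 is chr3:50443626-50443725 on the minus strand, and that of Slc1a4 is chr11:20332710-20332763 on the minus strand.
Slc7a11: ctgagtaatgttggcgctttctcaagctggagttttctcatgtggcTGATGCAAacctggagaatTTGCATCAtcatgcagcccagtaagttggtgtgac
Slc1a4: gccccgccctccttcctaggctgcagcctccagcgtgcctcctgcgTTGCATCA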

How the data were processed

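Of the deposited files, which hold raw counts of reads per gene that the authors made with STAR (2.6.0c in the submitters' notes) on GRCm38.p6, column 4 was used, the reads on the second strand setting. The genotype libraries are unstranded (49.6 to 49.7% of stranded reads in that column), the inhibitor libraries stranded (87.9 to 90.5%). For column 4, reads not counted on a gene made up 63.1 to 65.2% and 21.5 to 25.1%, which in the unstranded libraries includes reads of the other strand setting.

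Symbols came from GENCODE vM21, which matched 54079 of 54146 genes. Each experiment (12 libraries) was fitted separately with edgeR 4.0.16 (R 4.3.3) over all genes after filterByExpr, with TMM factors, a model of group alone and quasi-likelihood tests, and a gene was called at a Benjamini-Hochberg adjusted p under 0.05. CPM are counts over the TMM-scaled library, and per kb means per kilobase of joined exons. Alternatives were DESeq2 1.42.0, its size factors in edgeR, no filter, at least 10 counts in every library, the unstranded column, only the groups compared, a replicate block, leaving out each library and leaving out both libraries with WT-level Cdk19. Tables and plots used Python 3.11.15, pandas 2.3.3 and matplotlib 3.10.9.

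Members and lists (brush border, basolateral, growth, lysosomal, glutamate, neurotransmitter and osmolyte and other carriers; partners and peptidases; amino acid response; markers of intestinal epithelium, enterocytes, stem, proliferating, Paneth, goblet, enteroendocrine and tuft cells, mammary epithelium, fibroblasts, immune cells and endothelium) were chosen with earlier results of these data known. Values per library are given for reported brush border, basolateral and growth carriers and other called members; of the partner and response lists, the 3 called genes with the largest change per comparison are named.

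Pairing was read from correlations of same-number libraries within each experiment after group means were removed. In the genotype experiment these ran from -0.193 to 0.219. Cdk8 knockout library 2 with double knockout library 1 gave 0.452, so pairing by number is not shown there. Senexin B against DMSO gave r = 0.303, 0.101 and 0.110 at 16 h and 0.377, 0.137 and 0.187 at 24 h for libraries 1, 2 and 3. DMSO at 24 h against 16 h gave 0.366, -0.050 and 0.284. Of unlike numbers, Senexin B library 2 against DMSO library 3 gave 0.154 at 16 h and 0.147 at 24 h. Pairing by number is therefore not shown for libraries 2 and 3. Between libraries of a group the mean chi-square per gene was 2.31 to 35.9 in the genotype and 4.31 to 28.2 in the inhibitor experiment, where 1 is sampling noise.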

Additional observations from a re-analysis of the deposited data

How the results depend on the processing

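The limits are these. With 3 libraries per group, 1 library decides many calls near the threshold. Gene counts include no correction for neighbours on the other strand in the genotype experiment. Of 827 values of 60 gene results under other settings, 652 stayed on the same side of the threshold with the same direction, 113 lost the call, 62 gained it and 0 reversed. Where counts moved, the cause was not tested.

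In every comparison DESeq2 and the fit with no filter covered 63 members instead of 40. For DESeq2 the 63 include any that its own filter left without an adjusted p. Members called by edgeR in the Cdk8 knockout numbered 2, and 5 with DESeq2, 7 with no filter, 1 in the unstranded column, 5 with only the groups compared, 4 without both libraries at the WT level of Cdk19, and 1 to 5 with any 1 library left out. Of all genes these fits called 804, 1276, 1269, 896, 937, 1309 and 196 to 699, in the same order. In the Cdk19 knockout 0 were called by edgeR (16 at an unadjusted p under 0.05), and 5 with DESeq2, 8 with no filter, 1 with only the groups compared, 5 without both doubted libraries, and 0 to 4 with 1 left out. Of all genes these fits called 0, 298, 479, 15, 666 and 0 to 521, in the same order. In the double knockout the 19 became 10 to 16 with 1 left out and 16 to 22 otherwise, beside 1348 to 2452 and 2551 to 3165 of all genes. Against the Cdk8 knockout the 0 by edgeR (17 unadjusted) became 6 with DESeq2, 6 with no filter and 0 to 4 with 1 left out. Of all genes these 3 kinds of fit called 402, 358 and 3 to 839, beside 4 in the standard fit. For the departure from additivity the 0 by edgeR (19 unadjusted) became 14 with DESeq2, 16 with no filter, 9 without both doubted libraries and 0 to 9 with 1 left out. Of all genes these 4 kinds of fit called 481, 566, 728 and 0 to 467, beside 4 in the standard fit.

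For Senexin B at 16 h the 4 became 8 with no filter, 10 with the replicate block and 3 to 8 with 1 left out. Of all genes these 3 kinds of fit called 1413, 2293 and 657 to 1819, beside 1198 in the standard fit. At 24 h the 12 became 7 to 9 with 1 left out and 10 to 17 otherwise, 17 with the replicate block. Of all genes the fits with 1 left out called 2656 to 3805 and the others 4105 to 5712, beside 4252 in the standard fit. The change of its effect with time was 0 under every setting run by edgeR or DESeq2 (6 unadjusted). Of all genes these fits called 0 to 121, with 121 for no filter, 67 for DESeq2 and 60 for the replicate block. For DMSO over time the 5 became 10 with the replicate block, 1 with only the groups compared and 1 to 12 with 1 left out. Of all genes these 3 kinds of fit called 3281, 385 and 434 to 2296, beside 1719 in the standard fit.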

Other observations

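Secretory and other cell type markers moved as well. Of all genes, 5.15% were called in the Cdk8 knockout, 0% in the Cdk19 knockout and 17.3% in the double knockout. With Senexin B 7.75% were called at 16 h and 27.5% at 24 h, and over time in DMSO 11.1%. Of 7 Paneth cell markers all rose in the Cdk8 knockout and in the double knockout, with median log2 fold changes of 1.62 and 1.55, and with Senexin B 2 fell at 16 h and 5 at 24 h. Their summed level stood at 1545, 1724 and 1308 CPM in WT libraries 1, 2 and 3, 5366, 4134 and 4017 in the Cdk8 knockout, 1678, 1708 and 1419 in the Cdk19 knockout and 2598, 5267 and 4305 in the double knockout. Libraries with the Cdk8 deletion were above all others. Lyz1, the Paneth cell lysozyme, rose with a log2 fold change of 2.01 ± 0.22 (SE, edgeR adjusted p = 0.000481) in the Cdk8 knockout and fell with a log2 fold change of -1.02 ± 0.18 (SE, edgeR adjusted p = 0.00123) with Senexin B at 24 h. Of 8 goblet cell markers 3 rose in the Cdk8 knockout, 2 in the double knockout and 4 at 16 h of Senexin B, and at 24 h 5 rose and 1 fell, while in DMSO over time 1 rose. The mucin Muc2 rose with a log2 fold change of 1.36 ± 0.16 (SE, edgeR adjusted p = 0.00055) in the double knockout. Of 8 enteroendocrine markers 4 rose and 1 fell at each time of Senexin B, 3 rose over time in DMSO, and edgeR called 0 in the knockouts. Gcg, the glucagon precursor, rose with a log2 fold change of 2.57 ± 0.16 (SE, edgeR adjusted p = 6.66e-07) at 24 h. Of 7 tuft cell markers 2 fell in the double knockout, and with Senexin B 1 rose at 16 h and 4 at 24 h. Pou2f3, the transcription factor of tuft cells, fell with a log2 fold change of -1.66 ± 0.32 (SE, edgeR adjusted p = 0.005) in the double knockout.

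The next counts stand beside the same shares of all genes, and lists of 8 with 1 call over time in DMSO, where 11.1% of all genes were called, are near that share. Of 8 markers of intestinal epithelium 2 fell in the Cdk8 knockout, 1 rose and 2 fell in the double knockout, 1 fell at 16 h and 1 rose and 2 fell at 24 h of Senexin B, and 1 rose over time in DMSO. Of the enterocyte list 1 rose in the Cdk8 knockout, 1 rose and 3 fell at 16 h of Senexin B and 1 fell over time in DMSO. Of the stem cell list 1 rose and 1 fell in the Cdk8 knockout and at 16 h, and 1 fell over time. Of the proliferation list 2 fell over time. Of the lists of other tissues, Csn3 of the mammary list, the 1 gene of it tested, was called higher in the double knockout. There the list summed to 0.4096, 1.65 and 1.89 CPM in libraries 1, 2 and 3. In WT it summed to 0.337, 0.0687 and 0 CPM, and in the Cdk19 knockout to at most 0.130. Csn3 thus passed the count filter through Cdk8 and double knockout libraries alone. Only a rise against WT could be called, and no conclusion is drawn from this call. Pdgfra of the fibroblast list was called higher over time in DMSO. Of the immune and endothelial lists edgeR called 0 genes in any comparison.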
